A study of Mus musculus with 2 samples.

Results

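The joining (J) segments of the T cell receptor were examined in single mouse CD4 T cells. All genes of the deposited table whose symbol starts with Trbj or Traj were taken, which gave 53 of 12432 genes: 14 segments of the beta chain (Trbj) and 39 of the alpha chain (Traj). The cells had been sorted for binding to 2W1S, a model peptide, from lymph nodes and spleen of C57BL/6 mice colonized with recombinant Candida albicans that expresses it (CA-2W1S colonization). They were captured on a Fluidigm C1 instrument and amplified with SMART-Seq v4, which reads whole transcripts. There was 1 group, captured in March (82 cells) and in April (96 cells), and the column names show 4 runs, Mar1 (25 cells), Mar17 (57), Apr13 (48) and Apr21 (48). The labels do not say how many mice were pooled for each capture, so all spreads between captures may be technical, and cells are not replicates. No uncolonized mice were analysed here.

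A developing T cell builds its beta chain by joining a V, a D and a J segment, and its alpha chain by joining a V to a J segment. The mouse beta locus holds a pair of J clusters. Trbj1 segments lie before the constant gene Trbc1 and Trbj2 segments before Trbc2, and the J segment of the finished transcript is spliced to a constant gene. The alpha locus instead has a long row of J segments ahead of its constant gene Trac, and a cell can replace its first alpha join by a new one that uses a V segment farther upstream and a J segment nearer to Trac. J segments encode the end of the third complementarity loop, which contacts peptide, followed by a conserved Phe-Gly-X-Gly motif.

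The segments lie in 2 blocks of genome build mm10, on the plus strand, by the GENCODE vM21 annotation. The Trbj block runs on chromosome 6 from Trbj1-1 (chr6:41533864-41533911) to Trbj2-7 (chr6:41543810-41543856). Trbc1 (chr6:41538218-41539881) lies between the Trbj1 and Trbj2 clusters, and Trbc2 (chr6:41546730-41548352) lies behind both. The Traj block runs on chromosome 14 from Traj58 (chr14:54157280-54157342), nearest to the V genes among those analysed, to Traj2 (chr14:54217836-54217901), followed by Trac (chr14:54220521-54224206). All 14 annotated Trbj segments were analysed and 39 of 60 annotated Traj segments, and the other 21 Traj segments were not analysed here. Annotated pseudogenes among them were Trbj2-6, Traj14 and Traj8.

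The sequences below belong to the segments that the results turn on. They are the GENCODE vM21 transcripts of each segment, read 5′ to 3′, and capitals mark the motif TTNGGNNNNGGN, a pattern that covers the codons of Phe-Gly-X-Gly. Trbj2-7 and Trbj2-5 were most often the main beta segment of a cell. Trbj1-1 opens the Trbj1 cluster, and Trbj2-6 was never a cell's main segment and holds no match. Traj27, Traj23 and Traj31 were the alpha segments most often found with Trbj2-5, and Traj18 the one most often found with Trbj2-7.
Trbj1-1: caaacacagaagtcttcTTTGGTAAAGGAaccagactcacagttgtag
Trbj2-5: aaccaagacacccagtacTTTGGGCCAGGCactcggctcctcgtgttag
Trbj2-6: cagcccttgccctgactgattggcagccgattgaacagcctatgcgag
Trbj2-7: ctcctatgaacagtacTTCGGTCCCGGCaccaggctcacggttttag
Traj31: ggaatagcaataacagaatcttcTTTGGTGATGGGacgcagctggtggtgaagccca
Traj27: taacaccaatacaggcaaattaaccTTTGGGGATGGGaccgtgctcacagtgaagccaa
Traj23: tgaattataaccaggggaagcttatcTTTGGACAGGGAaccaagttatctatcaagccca
Traj18: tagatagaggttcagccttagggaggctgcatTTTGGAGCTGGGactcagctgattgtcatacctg

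The motif was searched on the segment's own strand only. It was found in 11 of 14 Trbj segments, all but Trbj1-6, Trbj1-7 and Trbj2-6, and in 32 of 39 Traj segments. The pattern also admits Leu codons and was searched in any reading frame. The matches in Traj38 and Traj44 start with TTG, so not every match encodes Phe. A version with TGG, the Trp codon, in the first place was found in Traj33, Traj38 and Traj46, also in any reading frame. In Traj38 and Traj46 it overlapped the first pattern in another frame, so a match does not show which residue is encoded. Among the 21 Traj segments not analysed here, 14 held the first pattern and 0 the version with TGG. Trbj segments were 45 to 53 bases long (median 49) and Traj segments 34 to 66 (median 60). The number of cells with a segment hardly followed its length (Spearman rho -0.26 over 14 Trbj and 0.16 over 39 Traj segments, as descriptions). No reads were available, so the joined sequences themselves, with their V ends and added bases, were not seen.

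Values are the deposited log2(value + 1), where the back-transformed value, called the linear value here, is TPM-like. The median number of genes above 0 per cell was 5344 in March and 4933.5 in April. The cells looked like CD4 T cells by their receptor genes: the CD3 genes Cd3d and Cd3g were above 0 in 100% of cells, Trbc2 in 100%, Trac in 96.6% and Cd4 in 91.0%. In contrast, Cd8a was above 0 in 8.99% of cells and the gamma constant gene Tcrg-C1 in 3.37%. Not all markers of other cell types were this rare. The second CD8 gene, Cd8b1, was above 0 in 27.0% of cells. The B cell gene Ebf1 was above 0 in 99.4% (median log2 value 1.73) and the myeloid gene Itgam in 77.0% (median 0.57). J segments together took a median of 2.05% of a cell's linear signal, from 0.0126% to 18.6%. The lowest Trbj value above 0 was a linear value of 43.2, and the lowest Traj value 25.97, so segments were either at 0 or well above it. The J segments are short, and without read counts the depth of their coverage is unknown. In 3 cells, all of Mar1, mitochondrial transcripts took over 50% of the signal.

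The first question was whether each cell had 1 main beta segment. A segment was called dominant in a cell when it held at least 50% of the summed linear value of its family. Since joined sequences were not seen, a dominant segment was not shown to be part of the cell's receptor. A dominant Trbj was found in 154 of 178 cells, 86.5% (95% exact Clopper-Pearson interval 80.6% to 91.2%, counting error only). The share was 87.8% in March (72 of 82) and 85.4% in April (82 of 96). Dominant segments had high values, with a median of 13.15 on the log2 scale and a range of 6.19 to 15.78. The highest segment held a median of 86.3% of the family's sum. No Trbj was above 0 in 8 cells, of which 7 were from March, and in 16 cells several segments shared the signal without a dominant one.

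Many cells nevertheless held more than 1 Trbj segment. A single segment was above 0 in 42 cells, 2 in 54 and 3 or more in 74, up to 8. Counting segments with at least 10% of the family's sum, 81 cells had 1, 61 had 2 and 28 had 3 or more. In the 16 cells with no dominant Trbj, the highest pair of segments were both Trbj1 in 7 cells, both Trbj2 in 3 and from both clusters in 6. The number of genes above 0 had a median of 5149.5 in the 24 cells without a dominant Trbj, against 5175 in cells with a dominant Trbj1 and 5004 in cells with a dominant Trbj2. No doublet caller was run, and the part of captured doublets in these numbers was not tested.

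**Figure D1:**
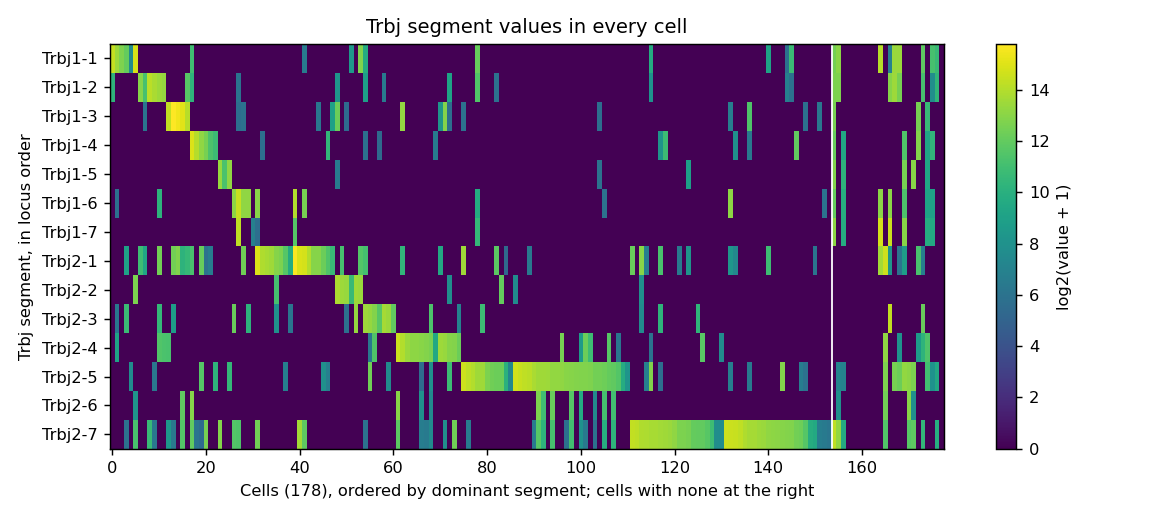
Deposited log2(value + 1) of the 14 Trbj segments (rows, in locus order) in all 178 cells (columns), ordered by dominant segment, with March before April within a segment. The 154 cells with a dominant segment lie left of the white line and show 1 bright step each, with scattered second segments, and the 24 cells without one lie right of it.

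Dominant beta segments were concentrated in the Trbj2 cluster. Trbj2-7, the last segment of the locus, was dominant in 43 cells: 20 of 72 in March, 27.8% (17.9% to 39.6%), and 23 of 82 in April, 28.05% (18.7% to 39.1%). Its runs gave 8, 12, 10 and 13 cells for Mar1, Mar17, Apr13 and Apr21. Its level where dominant had a median of 13.01 (6.19 to 14.59).

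Trbj2-5 was dominant in 36 cells, 11 in March, 15.3% (7.88% to 25.7%), and 25 in April, 30.5% (20.8% to 41.6%). By run it was dominant in 4 cells of Mar1, 7 of Mar17, 12 of Apr13 and 13 of Apr21. April was higher in the point value, and the intervals of the captures overlapped. Its median level where dominant was 12.87 (7.37 to 14.71), close to that of Trbj2-7.

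Trbj2-1, the first segment of its cluster, came next with 17 cells, 8 in March and 9 in April. Trbj2-4 was dominant in 14 cells, 9 in March and 5 in April, and 8 of its 14 cells came from Mar17. Trbj2-3 followed with 7 cells and Trbj2-2 with 6. Trbj2-7 and Trbj2-5 together made up 43.1% of March (31.4% to 55.3%) and 58.5% of April cells with a dominant Trbj (47.1% to 69.3%). Between runs this share lay between 37.3% in Mar17 and 65.0% in Apr21.

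The Trbj1 cluster was spread over its segments. Trbj1-1, Trbj1-2 and Trbj1-4 were dominant in 6 cells each, Trbj1-3 in 5, Trbj1-6 in 4, Trbj1-5 in 3 and Trbj1-7 in 1. The 6 Trbj1-1 cells were 5 from March and 1 from April, and the 6 Trbj1-2 cells were 2 and 4. The cluster as a whole was dominant in 22.2% of March cells, 16 of 72 (13.3% to 33.6%), and in April in 15 of 82, 18.3% (10.6% to 28.4%). Its runs lay between 16.7% (Apr13) and 23.5% (Mar17), each with a wide interval. The order of the 14 segments by number of dominant cells was similar in the captures (Spearman rho 0.68 over segments, a description).

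**Figure D2:**
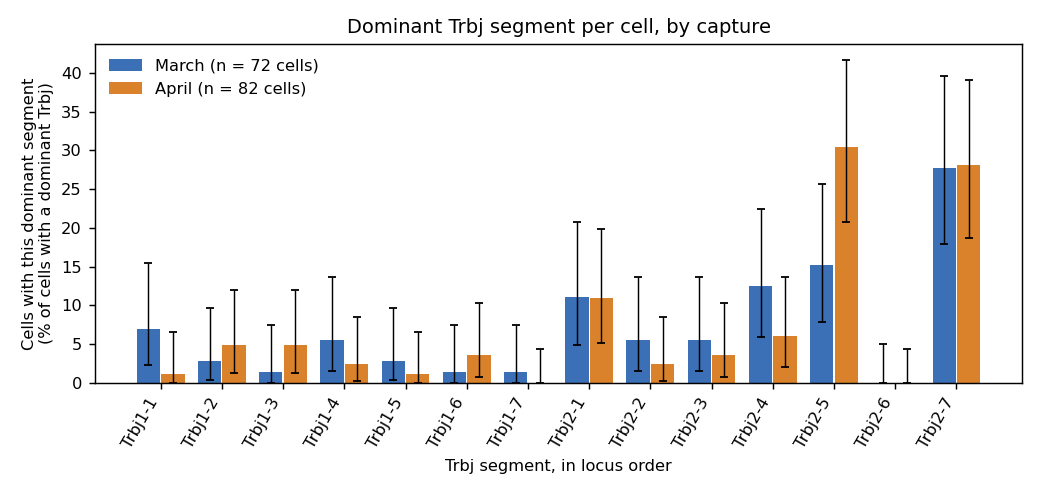
Share of cells with each dominant Trbj segment, in percent of the 72 March and 82 April cells that had one; bars are shares and whiskers 95% exact intervals. Trbj2-7 stands near 28% in both captures, while Trbj2-5 goes from 15.3% to 30.5% with overlapping intervals, and Trbj2-6 is at 0.

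Constant gene levels were then compared between cells by their dominant cluster. Trbc1, the constant gene between the clusters, was higher in Trbj1 cells. Over single cells its log2 value had a median of 12.22 (2.40 to 14.87) in the 31 Trbj1 cells and 2.64 (0 to 13.23) in the 123 Trbj2 cells. The ranges overlapped, but the middle of the Trbj2 cells lay far below. Trbc2, the constant gene behind Trbj2, had a median of 11.76 (2.62 to 13.09) in Trbj1 cells and 12.85 (5.62 to 14.76) in Trbj2 cells, so it was high in both. Trbc1 was at 0 in 0 of 31 Trbj1 cells (interval up to 11.2%) and in 27 of 123 Trbj2 cells.

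The capture means showed the same order. Mean Trbc1 was 10.47 in Trbj1 cells and 3.55 in Trbj2 cells of March, and 12.28 against 4.46 in April. Mean Trbc2 was 9.63 against 12.59 in March and 11.36 against 12.63 in April. Both captures thus had higher Trbc1 and lower Trbc2 in Trbj1 cells.

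In limma on these capture means, with the capture as a block, 2 of 10784 genes passed an adjusted p of 0.05 (0.0185% of genes tested), 1 higher (0.00927%) and 1 lower (0.00927%). They were Trbc1, higher by 7.37 ± 0.52 (SE, 95% interval 6.35 to 8.39, n = 2 captures, limma adjusted p 3.91e-41), and Trbc2, which differed by -2.11 ± 0.27 (-2.64 to -1.59, limma adjusted p 1.34e-11). These are differences of mean log2 values with zeros included, not folds. The fit had 1 residual degree of freedom and took its variance entirely from the trend over all genes. Its SEs, intervals and p-values therefore say little about the spread between captures. The Trbc2 differences by capture, -2.96 in March and -1.27 in April, both lay outside its interval. Trbc1 was called under each alternative that allowed a test, with limma adjusted p-values from 5.17e-42 to 0.0263, and its difference was 3.82 when linear values were averaged before the log. Trbc2 was not called in 6 alternatives: without the block (limma adjusted p 0.937), with runs as blocks (0.773), with averaged linear values (0.511), at a dominance share of 80% (0.835), without Mar17 (0.919) and without Apr13 (0.260). Its difference stayed negative in each of these.

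Within single cells the order of both genes followed the cluster. Trbc1 was above Trbc2 in 21 of 31 Trbj1 cells, 67.7% (48.6% to 83.3%), and in 1 of 123 Trbj2 cells, 0.813% (0.0206% to 4.45%). In March the counts were 8 of 16 against 0 of 56, and in April 13 of 15 against 1 of 67. In the 4 Trbj1 cells of Mar1, Trbc1 was above Trbc2 in 0.

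By segment, all 5 Trbj1-3 cells had Trbc1 above Trbc2, with Trbc1 between 13.76 and 14.87. The same order was seen in 4 of 6 Trbj1-1, 4 of 6 Trbj1-2, 3 of 6 Trbj1-4, 2 of 3 Trbj1-5 and 3 of 4 Trbj1-6 cells, and not in the 1 Trbj1-7 cell, where Trbc1 was 2.40. The 1 Trbj2 cell with this order had a dominant Trbj2-5. Median Trbc1 in cells of each Trbj2 segment lay between 2.38 (Trbj2-7) and 8.24 (Trbj2-2, 6 cells).

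**Figure D3:**
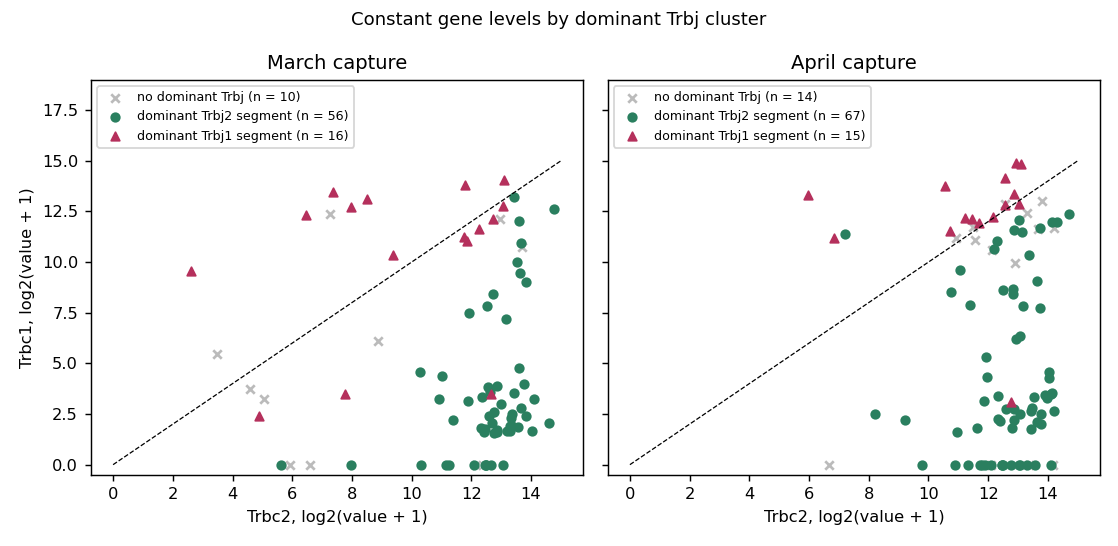
Trbc1 against Trbc2, both as log2(value + 1), in every cell of the March (left) and April (right) captures; triangles are cells with a dominant Trbj1 segment, circles a dominant Trbj2 segment, crosses neither, and the dashed line marks equal values. Triangles lie above the line in 21 of 31 cells and circles in 1 of 123.

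Cells of 1 cluster often held segments of the other, more so on the Trbj1 side. A Trbj2 segment was above 0 in 27 of 31 Trbj1 cells, 87.1% (70.2% to 96.4%), and a Trbj1 segment in 38 of 123 Trbj2 cells, 30.9% (22.9% to 39.9%). The constant genes differed with these second segments. Median Trbc2 was 11.85 in the 27 Trbj1 cells with a Trbj2 segment and 5.69 in the 4 without, all 4 from March, the capture with the lower mean Trbc2 in Trbj1 cells. Median Trbc1 was 7.86 in the 38 Trbj2 cells with a Trbj1 segment and 2.13 in the 85 without. After cells with at least 10% of their Trbj signal in each cluster were left out, an alternative added after the values were seen, the limma difference was 8.76 for Trbc1 and -4.38 for Trbc2. The annotated Trbc1 and Trbc2 transcripts are 95.7% identical over 512 aligned bases. How the submitters' counting placed reads shared by both copies is not given in the sources used here, so low values of either gene are uncertain.

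Other cell type markers were set beside this comparison. The summed level of the 2 myeloid genes analysed, Itgam and Csf1r, had a median of 1.501 in March and 1.46 in April Trbj1 cells (range over both 0 to 7.73), against 0.64 and 0.39 in Trbj2 cells (0 to 7.30). The B cell genes Ebf1 and Pax5 summed to medians of 1.79 and 1.74 against 1.94 and 1.71. Medians of the CD8, natural killer and Tcrg-C1 sums were 0 in both classes and captures. None of these marker genes that was tested passed in limma, and their part in the Trbc result was not tested.

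Of 25 genes of the receptor complex and of V(D)J recombination, 19 were tested. Trbc1 was higher and Trbc2 lower past the threshold, and the other 17 did not pass. The list's median difference was -0.07, against 0.00 over all genes. Trac, the alpha constant gene, differed by -0.82 ± 0.36 (limma adjusted p 0.695). The CD3 signalling genes Cd3g, Cd3e and Cd3d, which did not pass, differed by 0.48, 0.27 and -0.73. The end-joining genes Lig4, which seals the joint, at -0.33 and Xrcc4, its partner, at 0.05 did not pass either. After Trbc1 and Trbc2, the gene with the smallest p was the kinase gene Wnk1 at 2.52 ± 0.64 (limma adjusted p 0.303), named because of its rank. In all, 752 genes had an unadjusted p under 0.05.

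Next, the position of second segments was examined. Trbj2-6, the pseudogene, was above 0 in 18 cells (5 in March, 13 in April) and dominant in none. Trbj2-7, the segment behind it, was above 0 in all 18, and Trbj2-5, the segment before it, in 14. In these cells Trbj2-6 had a median log2 value of 11.04 (7.47 to 12.98), Trbj2-5 of 12.70 where present and Trbj2-7 of 11.22. The dominant segment was Trbj2-5 in 8 of them, Trbj2-4 in 3, a Trbj1 segment in 3 and none in 4.

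Seen from the dominant segment, Trbj2-6 was present in 8 of 36 Trbj2-5 cells, all from April, and in 3 of 14 Trbj2-4 cells, all from March. It was present in 0 of 43 Trbj2-7 cells and 0 of 17 Trbj2-1 cells. It was also present in 0 of 6 Trbj2-2 and 0 of 7 Trbj2-3 cells. Among dominant Trbj2 segments, Trbj2-6 was therefore found beside Trbj2-4 and Trbj2-5 only, each in 1 capture, and not where Trbj2-7 was dominant. Within the same cluster, segments on the Trbc side of the dominant one were above 0 in 53 of 388 places (13.7%), and segments on the V side in 52 of 536 (9.70%). For the nearest neighbour the counts were 19 of 110 (17.3%) and 11 of 131 (8.40%). Over the cluster the difference was 7.07 percentage points in April and 0.51 in March. Of the 30 Trbc-side places above 0 in April, 8 were Trbj2-6 and 11 were Trbj2-7 beside a dominant Trbj2-5. For the nearest neighbour the Trbc side was higher in both captures, with 15.7% against 3.39% in March and 18.6% against 12.5% in April. Of the 11 April cells with a Trbc-side neighbour, 8 had Trbj2-6 beside a dominant Trbj2-5, so the April order rested largely on this pair.

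Neighbours in the locus were found in the same cells more often than distant segments. Trbj1-6 and Trbj1-7, 35 bases apart, shared 11 cells, which was 55.0% of the Trbj1-6 cells and 91.7% of the Trbj1-7 cells. Trbj1-1 and Trbj1-2, 89 bases apart, shared 15 cells, 60% and 55.6%. Over the 13 adjacent Trbj pairs a median of 13.8% of the cells with either segment held both, against 8.69% over 78 other pairs. Sharing was lower at wider gaps between neighbours (Spearman rho -0.65 over 13 pairs) and had little relation to sequence identity (0.14 over 91 pairs); pairs share segments and cells, so both are descriptions.

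The same description for alpha segments gave a less clear picture per cell. A dominant Traj was found in 134 of 178 cells, 75.3% (68.3% to 81.4%), 61 of 82 in March and 73 of 96 in April. By run the share went from 60% in Mar1 to 81.3% in Apr13. No Traj was above 0 in 6 cells, and 38 cells held several without a dominant one. A single Traj was above 0 in 33 cells, 2 in 56 and 3 or more in 83, up to 15. These counts cover 39 segments only, so a cell whose main segment is one of the other 21 can show no dominant Traj or a minor one. The median level of a dominant Traj was 11.02 (5.06 to 15.25), and 34 of 39 segments were dominant in at least 1 cell.

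Dominant alpha segments were spread along the analysed part of the locus with a few high points. Traj23 was dominant in 15 cells (6 in March, 9 in April), 11.2% (6.40% to 17.8%), at a median level of 12.21. Traj27 was dominant in 13 cells (5 and 8), Traj31 in 12 (5 and 7) and Traj18 in 11 (5 and 6). For each of the 4 segments the intervals of the captures overlapped. Together with Traj13 (6 cells), Traj17 (5) and the annotated pseudogene Traj8 (5) they led the list.

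By capture, Traj17 had 4 March cells against 1 in April, Traj49 4 against 0 and Traj8 1 against 4. The Traj segments never dominant were Traj11, Traj25, Traj38, Traj42 and Traj46. Across the 39 segments the March and April counts of dominant cells had a Spearman rho of 0.40.

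Detection and dominance parted for some alpha segments. Traj18 was above 0 in 45 cells, more than any other Traj, and dominant in 11. Traj24 was above 0 in 29 cells and dominant in 4, whereas Traj31 was above 0 in 24 and dominant in 12. Traj24 and its neighbour Traj23 lie 380 bases apart and shared 18 cells, which was 62.1% of the Traj24 and 52.9% of the Traj23 cells. Traj24 was above 0 in 8 of 15 cells with a dominant Traj23, and Traj23 in 0 of 4 with a dominant Traj24. In the 18 shared cells Traj23 was the highest Traj in 16.

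Of the cells with Traj24 or Traj23, 40% held both, and such shares were also seen for Traj15 with Traj14 (46.2%), Traj42 with Traj41 (44.4%) and Traj20 with Traj19 (42.9%), each over 6 or fewer shared cells and named after their values were seen. Adjacent Traj pairs had a median of 14.6% of the cells with either in common (32 pairs), against 3.57% over 709 other pairs. Sides were equal over the whole row: segments on the V side of the dominant one were above 0 in 3.60% of 2696 places and those on the Trac side in 3.51% of 2396. The nearest neighbour was taken among the analysed segments, so it was not always adjacent in the locus. It was above 0 in 17 of 132 cells on the V side (12.9%) and in 9 of 130 on the Trac side (6.92%). Of the 17 cells, 8 had a dominant Traj23 with Traj24 beside it, so this order rested largely on a single pair. Traj22, on the Trac side of Traj23, was above 0 in 0 of the 15 cells with a dominant Traj23. March and April each had the higher share on the V side, with 13.3% against 6.78% and 12.5% against 7.04%. Run Mar1 had the reverse, with 6.67% against 14.3%.

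**Figure D4:**
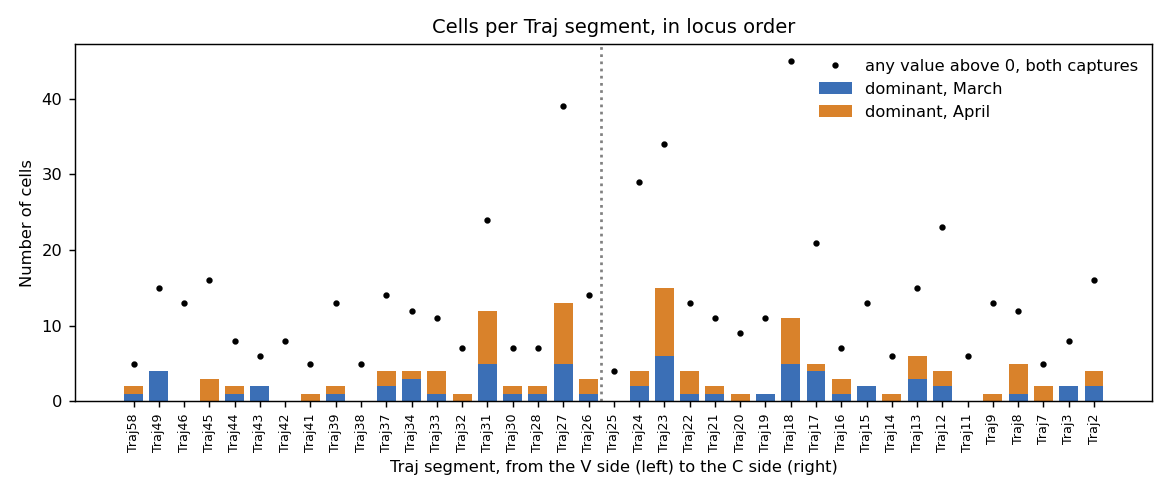
Number of cells per Traj segment, ordered from the V side to the C side; stacked bars are cells in which it is dominant (March and April), points are all cells with a value above 0, and the dotted line separates the 19 V-side from the 20 C-side segments. Traj31, Traj27, Traj23 and Traj18 have the tallest bars, and Traj24 has a high point (29 cells) over a short bar (4 cells).

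Alpha segments were next divided by position. The 19 segments from Traj58 to Traj26 were called V-side and the 20 from Traj25 to Traj2 C-side. In March, V-side segments were dominant in 28 of 61 cells, 45.9% (33.1% to 59.2%), and in April in 33 of 73, 45.2% (33.5% to 57.3%). All 4 runs lay between 44.1% and 46.7%. The captures did not differ in this split beyond counting error. Of the 21 Traj segments not analysed, only Traj1, Traj4, Traj5 and Traj6 lie on the C side. The V side was thus covered less fully, and its share may be too low.

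Expression was compared between V-side and C-side cells in limma, and 0 of 10788 genes passed (0% of genes tested); 531 had an unadjusted p under 0.05. The smallest adjusted p belonged to Sod1, which encodes superoxide dismutase, at -1.67 ± 0.28 (limma adjusted p 0.0943). Trac, next to the C-side segments, had means of 10.44 in V-side and 8.29 in C-side cells of March and 11.28 against 10.75 in April, a difference of 1.34 ± 0.31 (limma adjusted p 0.948). It was in the same direction in both captures but unequal in size. The Trac difference was smaller, at 0.41 without Mar17, 0.60 at a dominance share of 80% and 0.70 with averaged linear values. It was larger, at 1.49 without Apr13, 1.59 without the mostly mitochondrial cells and 1.64 without Mar1. Trac was called in none of these. Of the 25 receptor and recombination genes 19 were tested and 0 passed in either direction, with a median of -0.10 against -0.06 over all genes.

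V genes could be set beside J segments for the alpha chain only in part, since 9 Trav genes and no Trbv gene were analysed. In 111 cells with both a dominant Trav and a dominant Traj, the positions of the pair had a Spearman rho of 0.06 over cells, 0.10 in March (47 cells) and 0.02 in April (64 cells), given as descriptions. Trav13d-1 and Trav13-2 were dominant in 37 and 38 of the 111 cells. Trav8-2, annotated as a pseudogene, was dominant in 19, and 16 of these had a C-side Traj. Over any Trav, 59 of the 111 cells had a C-side Traj. Trav genes of the 13 and 8 groups have near-identical copies in the locus, so which copy was expressed is uncertain.

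Traj17 and Traj18 went with Trav8-2, in a grouping chosen after the values were seen. Trav8-2 was the dominant Trav in 10 of 13 such cells with both, 6 of 7 in March and 4 of 6 in April. These 10 cells are among the 16 Trav8-2 cells with a C-side Traj, so the observations are not separate. Among cells with Traj27, Traj23 or Traj31, Trav8-2 was dominant in 2 of 32, while Trav13d-1 or Trav13-2 was in 26 of 32, against 75 of 111 over any Traj.

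Traj18 and Traj33 are also known from innate-like T cells, Traj18 from the invariant receptor of natural killer T cells and Traj33, joined to Trav1, from that of mucosal-associated invariant T cells. The marker Klrb1c, encoding NK1.1, reached a linear value of 1 in 0 of 11 cells with a dominant Traj18, in 3 of 45 with any Traj18 and in 5 of 133 without it, so a share this low in 11 cells does not separate them from the rest. Cd4 reached that level in 7 of 11 and in 95 of 133. Trav1 was above 0 in 0 of 4 cells with a dominant Traj33. The V gene of the invariant natural killer T receptor was not analysed here.

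Both a dominant Trbj and a dominant Traj were found in 118 cells, 54 from March and 64 from April. They made 83 different pairs, of which 65 occurred once. The other 18 pairs covered 53 cells, and 11 of them were found in both captures and 7 in 1 capture. At a dominance share of 80%, 41 cells had both segments, and 3 repeated pairs covering 8 cells were left. A pair of J segments does not give the V genes or the joint, so cells that share a pair cannot be called members of 1 clone.

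The most frequent pairs held Trbj2-5. Trbj2-5 with Traj27 occurred in 7 cells (2 in March, 5 in April) and in all 4 runs. Trbj2-5 with Traj23 occurred in 6 cells (2 and 4), also in all 4 runs. Trbj2-5 with Traj31 occurred in 5 cells, all from April. The order of the pairs depended on the dominance rule: at a share of 80%, Trbj2-5 was left with Traj27 in 1 cell, with Traj23 in 1 and with Traj31 in 3, and Trbj2-7 with Traj18 in 3. The dominant Trav of the 7, 6 and 5 cells was Trav13d-1 in 3 cells of each and Trav13-2 in 2 cells of each.

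Trbj2-7 paired with other alpha segments. Trbj2-7 with Traj18 occurred in 5 cells (3 and 2), of which 4 had Trav8-2. Trbj2-7 with Traj17 occurred in 3 cells, all from Mar17 and all with Trav8-2, and Trbj2-7 with Traj8 in 3 cells, all from April. The Trbj2-7 cells had 22 different Traj partners among 33 cells, and the Trbj2-5 cells 12 among 29.

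Traj27, Traj23 or Traj31, a set chosen after the pairs were seen, was the dominant Traj in 18 of 29 Trbj2-5 cells, 62.1% (42.3% to 79.3%). It was so in 18 of 89 cells with another Trbj, 20.2% (12.4% to 30.1%). Among these, Trbj2-7 was low with 3 of 33 cells, while Trbj2-4 had 4 of 12, Trbj2-1 4 of 11 and Trbj2-3 1 of 7. Trbj1-1 and Trbj1-2 had 2 of 5 each, Trbj1-4 and Trbj2-2 1 of 5 each, and Trbj1-3, Trbj1-5 and Trbj1-6 had 0. The intervals of Trbj2-4 (9.92% to 65.1%) and Trbj2-1 (10.9% to 69.2%) overlapped that of Trbj2-5. For Trbj2-5 against all other Trbj, the March counts were 4 of 9 against 10 of 45, with overlapping intervals. In April they were 14 of 20 against 8 of 44. No test was made, since cells are not replicates and the set was chosen from these values. Counting any value above 0 of the 3 segments, the shares were 63.9% (23 of 36) and 41.5% (49 of 118), with overlapping intervals. At a dominance share of 80% the counts were 5 of 9 against 6 of 32, with 0 of 2 March Trbj2-5 cells.

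**Figure D5:**
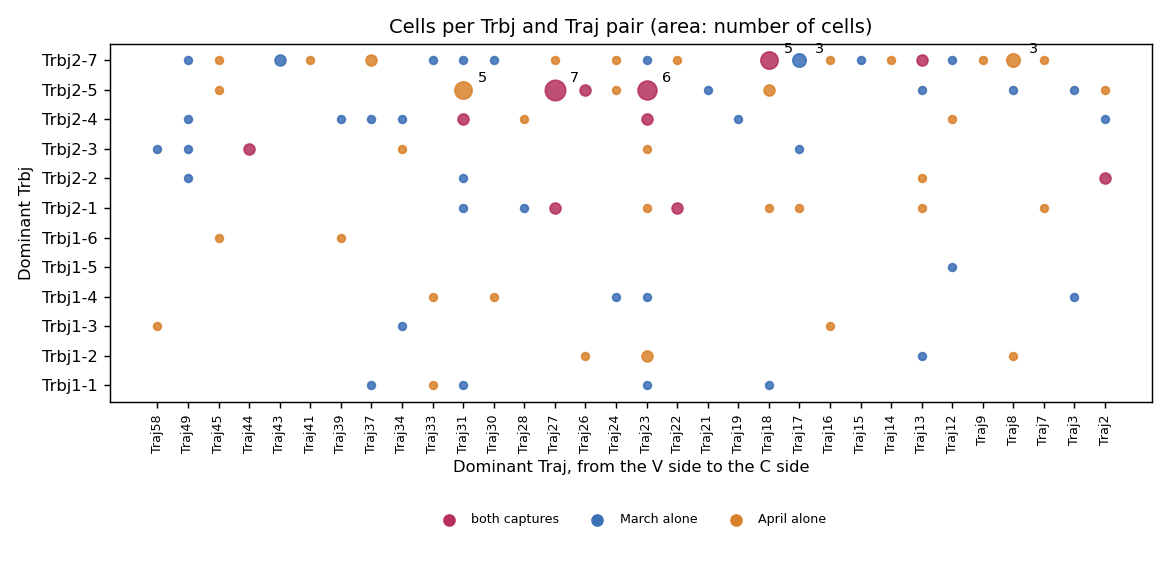
Cells for each pair of dominant Trbj (vertical, locus order) and dominant Traj (horizontal, from V side to C side) among the 118 cells with both; area is the number of cells, printed for 3 or more, and colour shows whether a pair was seen in both captures or in 1. The largest circles are Trbj2-5 with Traj27 (7 cells), Traj23 (6) and Traj31 (5) and Trbj2-7 with Traj18 (5).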

How the data were processed

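Single-cell libraries of 178 cells from 2 captures of 1 group were used. The authors deposited log2 values per gene; build mm10 is given per the submitters' processing notes, and neither the aligner nor the read counting is stated there. That values are log2 of a TPM-like number plus 1 was read from their sums (892206 to 979888 per cell). Of the gene IDs, 12163 matched GENCODE vM21 symbols and 269 did not; 0 columns were left unmapped. A dominant segment needed 50% of the family's sum and a linear value of 1 or more. Shares carry exact 95% intervals. Pseudobulk means of log2 values per capture and class were tested with limma 3.58.1 (R 4.3.3; trend, capture as block, Benjamini-Hochberg, two-sided, genes above 0 in at least 10% of cells, class-defining segments left out). Captures are blocks because both classes come from the same cell pools. In a self-test, class labels of the real cells were shuffled within each capture. Then 200 of 10784 genes were shifted by the same log2 amount in all cells of 1 Trbj class, zeros included. Of these, 66% were recovered at a shift of 2, 96.5% at 3 and 0% at 1. For the V-side and C-side classes and 10788 genes, the shares were 74%, 99.5% and 0%. Unshifted genes called at shifts of 2 and 3 numbered 9 and 9 between Trbj classes, and 2 and 4 between V-side and C-side classes. The shift was equal in both captures, so these shares do not give the recovery of differences that vary between captures. Named genes were all J segments, Trbc1, Trbc2, Trac, Trav genes paired with them, a list of 25 receptor and recombination genes and up to 3 called genes per direction; Wnk1, Sod1 and the marker genes were named outside that rule. Members and lists were chosen with earlier results of these data known. Shares, sequences and figures came from Python 3.11.15 with SciPy 1.17.1 and Biopython 1.88.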

Additional observations from a re-analysis of the deposited data

How the results depend on the processing

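The depth behind each value is unknown, and with 2 captures small differences between classes cannot be seen. The Trbj1 share of 20.1% was 17.2% at a dominance share of 80% and 23.5% with no minimum, and 18.3% to 22.2% with a capture left out. The V-side share of 45.5% was 49.4%, 43.0% and, without the mostly mitochondrial cells, 44.7% (45.2% to 45.9% with a capture left out). The rho of Trav and Traj positions, 0.06, was 0.20 at 80% (0.02 to 0.10 with a capture left out). The Trac-side minus V-side difference of second Traj segments, -0.092 percentage points, was 0.868 at 80% (-0.263 to 0.0253 with a capture left out). Of 18 repeated pairs, 3 were left at 80%, where 41 cells had both segments, and 5 to 8 were repeated within 1 capture, as chosen after seeing the data. The 2 calls between Trbj classes became 1 without the replicate block, with runs as a replicate block, with averaged linear values, at 80% and without run Mar17 or Apr13, and that call was Trbc1. They became 3 without Apr21, where Cd48 was added, and without cells holding both clusters, where Mtpn was added. Between V-side and C-side cells the 0 calls became 1, Sod1, with no filter on detection, and stayed 0 without the replicate block. The Trbc2 difference between them, -0.18, was 0.11 without the mitochondrial cells, 0.012 without Mar1, and -0.65 and 0.28 with a capture left out, none of them called. Leaving out 1 capture gave no test, since no residual degree of freedom was left. A minimum linear value of 10 changed none of the shares or pair counts. Why the values moved was not tested.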
